A study of Mus musculus with 17 samples.

Results

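Nuclear-encoded oxidative phosphorylation (OXPHOS) genes were taken by name from the raw count tables of both erythroleukaemia models. They were the genes whose names start with Nduf, Sdha to Sdhd, Uqcr, Cox4i, Cox5, Cox6, Cox7, Cox8 or Atp5, without processed pseudogenes. The rule gave 95 genes, of which 94 were listed in each table and 93 in both, among 26029 genes in model 1 and 24659 genes in model 2. By function they were 39 genes of complex I, 4 of complex II, 8 of complex III, 19 of complex IV, 17 of complex V and 8 Ndufaf genes, which encode assembly factors of complex I. Ndufa4 and Ndufa4l2 were counted with complex IV, where their products are now placed.

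OXPHOS is the last step of respiration in mitochondria. Complex I and complex II take electrons from NADH and succinate, complex III and cytochrome c pass them on, and complex IV gives them to oxygen. Protons pumped on the way drive complex V, the ATP synthase. Most subunits are encoded in the nucleus and a few in the mitochondrial genome, so that assembly needs both. Erythroid precursors use their mitochondria for haem and iron-sulphur cluster synthesis as well as for ATP, and lose them at the end of differentiation.

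The libraries came from blasts of 17 mice, 1 library per mouse, grown with EPO. Mice are named by their stage, P for preleukaemic and L for leukaemic, and the number in their titles. All mice carried the Spi1 transgene (TgSpi1), including the groups used as controls, so no group shows cells without it. In model 1 (DBA2JxFVB/N strain) there were 4 TgSpi1FA+/+ preleukaemic mice (P138, P445, P451, P479), 3 TgSpi1FA-/- preleukaemic mice (P40, P77, P224), which lack Fanca of the Fanconi anaemia pathway, and 3 TgSpi1FA-/- leukaemic mice (L26, L28, L39). In model 2 (DBA2J strain) there were 4 preleukaemic (P633, P663, P812, P837) and 3 leukaemic (L601, L606, L921) TgSpi1FA+/+ mice, the leukaemic cells having been obtained after serial transfusions of blood. Model 1 has no TgSpi1FA+/+ leukaemic group and model 2 no TgSpi1FA-/- group, and the models also differed in strain and library protocol, so that genotype, strain and protocol cannot be told apart between models. The titles and cell type of P40, P77 and P224 say preleukaemic, whereas their source name and column names say leukaemic. They are treated as preleukaemic.

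Depth was 29964576 to 38217654 counts per library in model 1 and 37726753 to 40514205 in model 2, and values are CPM, counts scaled to a common library size after TMM, with errors given as SD over mice. A floor of 3 counts corresponded to 0.0742 to 0.0985 CPM, which covers counting error only. Fanca was at 28.2 to 83.5 CPM in the TgSpi1FA+/+ mice of model 1 and at 0.615 to 2.30 CPM in the TgSpi1FA-/- mice. Spi1 was at 3.88 CPM in leukaemic L39, against 220 CPM in L28 and 630 CPM in L26. Against preleukaemic cells of the same genotype, it was lower without overlap in leukaemic cells of both models. TgSpi1FA-/- preleukaemic mice had 670 to 781 CPM, and model 2 had 103 to 188 against 215 to 332 CPM. The TgSpi1FA+/+ preleukaemic mice of model 1, at 467 to 1061 CPM, overlapped the leukaemic ones. The part of Spi1 in the OXPHOS values was not tested. All 12 erythroid markers were detected in both tables. In bulk RNA, fewer cells of a type and less RNA per cell cannot be told apart. In model 1, the count profiles of P445 and P479 were far closer to each other (chi-square per degree of freedom 8.53) than those of any other pair of 1 group (114 to 372), whereas in a further table of the same mice, described below, their value was 350, against 393 to 742 for other pairs. Whether they share a library in the first table was not tested. They are counted as separate mice by their numbers, and if they share a library, n = 4 there stands for 3. All libraries of model 1 were fitted together, so a shared library would also bear on the spread behind the other tests. Averaging the pair was tried for the comparison of genotypes only.

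Per kilobase of exon, Atp5b, the catalytic beta subunit of complex V, had the highest level of all members, with 1324 ± 111 CPM per kb in TgSpi1FA+/+ preleukaemic cells of model 1 (n = 4) and 1134 ± 227 CPM per kb in those of model 2 (n = 4). Atp5a1, the alpha subunit of the same catalytic head, was at 614 ± 27.4 and 585 ± 144 CPM per kb. Cox4i1, a core nuclear subunit of complex IV, was at 541 ± 41.7 and 726 ± 199 CPM per kb. Within complex II, the membrane anchor Sdhd had the highest level (330 CPM per kb), before the iron-sulphur subunit Sdhb (207), the flavoprotein Sdha (143) and the other anchor Sdhc (46.0), in TgSpi1FA+/+ preleukaemic cells of model 1.

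Summed over all members, TgSpi1FA-/- leukaemic cells of model 1 had 16064 ± 658 CPM (n = 3), TgSpi1FA-/- preleukaemic cells 13451 ± 1373 CPM (n = 3) and TgSpi1FA+/+ preleukaemic cells 14625 ± 1369 CPM (n = 4). The leukaemic mice had 15330 (L26), 16602 (L28) and 16260 CPM (L39), and the TgSpi1FA-/- preleukaemic mice 13956 (P40), 11897 (P77) and 14501 CPM (P224). The leukaemic values were thus all above the TgSpi1FA-/- preleukaemic values, by a ratio of means of 1.19, but the TgSpi1FA+/+ preleukaemic values, 12839 to 16072 CPM, overlapped both. In model 2, the sum was 15639 (P633), 16037 (P663), 18712 (P812) and 10739 CPM (P837) in preleukaemic cells and 18398 (L601), 18893 (L606) and 21525 CPM (L921) in leukaemic cells. These groups overlapped through P812.

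In model 1, the summed CPM of complex I (3656 ± 155 against 3135 ± 184), II (1266 ± 33.4 against 1094 ± 120), IV (2222 ± 61.4 against 1857 ± 87.3) and V (6957 ± 282 against 5633 ± 881) were higher in leukaemic than in preleukaemic cells of this genotype without overlap. Complex III (1683 ± 182 against 1460 ± 87.5) and the Ndufaf genes (279 ± 39.5 against 272 ± 32.2) overlapped. In model 2, complex III (2248 ± 359 against 1568 ± 316) and complex IV (3336 ± 391 against 2116 ± 560) were higher in leukaemic cells without overlap. Complex II had nearly the same sum in leukaemic (1023 ± 166) as in preleukaemic cells (1080 ± 192) of model 2. Among its subunits, Sdha was lower and the other 3 were not. Ndufc2, an accessory subunit of complex I, had 1148 CPM in preleukaemic P812 of model 2 and 50.7 to 99.4 CPM in the other 3 mice. Without Ndufc2, a choice made after its value was seen, complex I did not overlap in model 2 (3832 to 4462 against 2249 to 3573 CPM), and neither did the sum over all other members (18258 to 21345 against 10688 to 17563 CPM). The sum over members that share under 5% of their exon words (defined below) with other genes did overlap in model 2. It was 14324 to 17099 CPM in leukaemic and 8970.5 to 15765 CPM in preleukaemic cells. That sum includes Ndufc2, whose 1148 CPM in P812 were less than the distance between P812 (15765 CPM) and L606 (14324 CPM). P812 would thus still lie above L606 without Ndufc2.

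**Figure D1:**
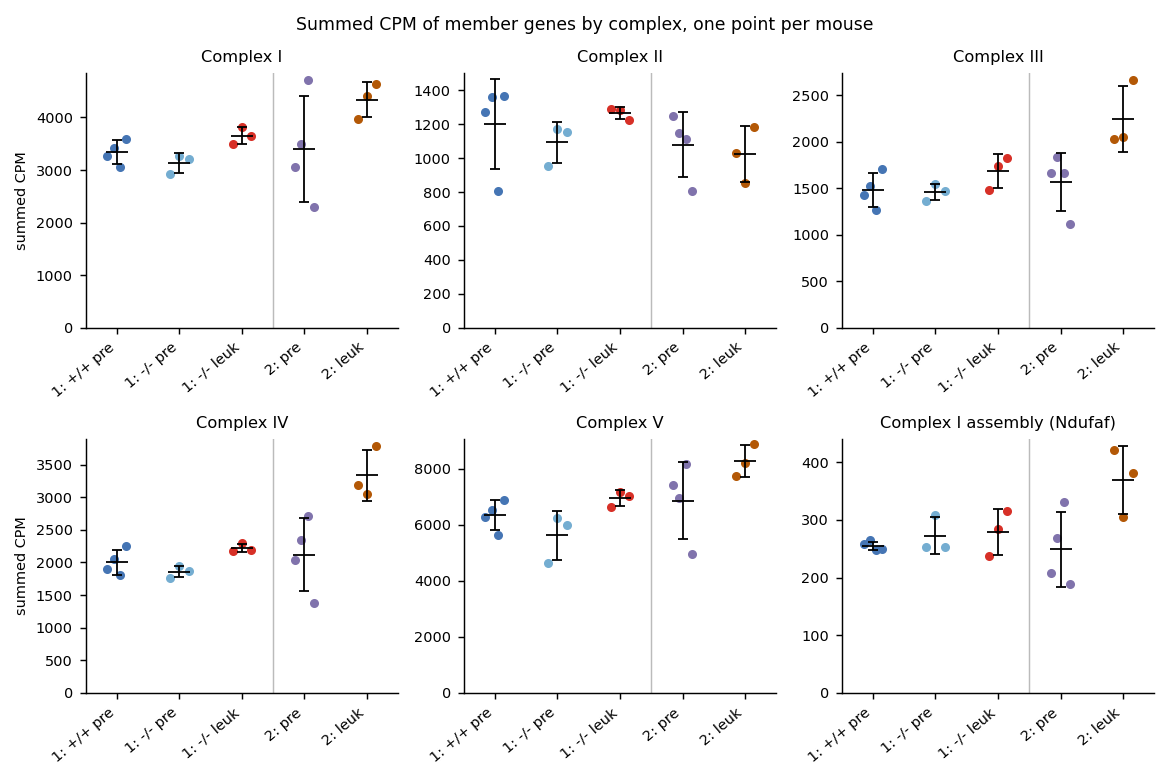
Summed CPM of the members of each complex and of the Ndufaf assembly factors in each mouse, on a linear axis from 0; points are mice, horizontal bars are group means and error bars are SD. In model 1, complexes I, II, IV and V do not overlap between TgSpi1FA-/- leukaemic and TgSpi1FA-/- preleukaemic mice, and in model 2 complexes III and IV do not overlap.

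The first comparison within model 1 set TgSpi1FA-/- leukaemic against TgSpi1FA-/- preleukaemic cells and asks what differs between the stages without Fanca. Of 88 members tested, 5 rose and 1 fell at an adjusted p under 0.05 (edgeR's quasi-likelihood test, adjusted over all genes tested) and a fold change of at least 1.5. The share called over all 13393 genes was 13.3%, and it was 6.82% over the members, so calls were not more frequent among OXPHOS genes. The members had smaller differences than genes at large: the median size of the log2 fold change was 0.25, against 0.51 over all genes. Their direction was less even, since 69 members were higher and 19 lower in leukaemic cells, with a median log2 fold change of 0.19, against 0.00 over all genes.

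Sdhc, which encodes a membrane anchor of complex II (GRCm38, chr1:171127165-171150603), rose in leukaemic cells. It was at 143 (P40), 120 (P77) and 88.8 CPM (P224) in preleukaemic cells and at 227 (L26), 262 (L28) and 165 CPM (L39) in leukaemic cells, without overlap. Its log2 fold change was 0.89 (SE 0.23, adjusted p = 0.0345). In TgSpi1FA+/+ preleukaemic cells, Sdhc overlapped the leukaemic values, with P138 above L39. The other subunits of complex II were not called, with log2 fold changes of -0.12 for Sdha, 0.13 for Sdhb and 0.34 for Sdhd.

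In complex IV, 3 subunits rose. Cox8a, the ubiquitous isoform of its smallest subunit (chr19:7215153-7217616), was at 137 (P40), 128 (P77) and 144 CPM (P224) in preleukaemic cells and at 245 (L26), 223 (L28) and 217 CPM (L39) in leukaemic cells. These groups were clearly apart, with a log2 fold change of 0.74 (SE 0.17, adjusted p = 0.0267). Cox7a2l, which takes part in joining complexes III and IV into supercomplexes (chr17:83501918-83517330), was at 42.4, 34.7 and 43.6 CPM in P40, P77 and P224 and at 70.6, 51.4 and 64.0 CPM in L26, L28 and L39. Its log2 fold change was 0.62 (SE 0.17, adjusted p = 0.0444). For this gene, TgSpi1FA+/+ preleukaemic cells overlapped the leukaemic values, with P479 above L28. Of its 50-base words, 13.8% also occurred in another gene, so that its count is less certain.

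Cox6a2, the isoform typical of heart and skeletal muscle (chr7:128205435-128206387), had the highest fold change of the members that rose, but at a very low level. It had 6 (P40), 4 (P77) and 3 counts (P224) in preleukaemic cells and 51 (L26), 199 (L28) and 99 counts (L39) in leukaemic cells. The fitted log2 fold change was 4.41 (SE 0.77, adjusted p = 0.0124), with a mean of 0.138 CPM in preleukaemic cells, close to the floor. The gene passed the filter on low counts through the groups where it is higher. TgSpi1FA+/+ preleukaemic cells had 11 to 36 counts.

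Ndufa5, an accessory subunit of the matrix arm of complex I (chr6:24518666-24528013), was the only member that fell. It was at 49.8 (P40), 50.5 (P77) and 56.3 CPM (P224) in preleukaemic cells and at 24.9 (L26), 32.6 (L28) and 33.3 CPM (L39) in leukaemic cells. The log2 fold change was -0.79 (SE 0.19, adjusted p = 0.0301), and all leukaemic values were below all TgSpi1FA-/- preleukaemic values. TgSpi1FA+/+ preleukaemic cells had 36.7 (P138), 51.2 (P445), 54.8 (P451) and 53.9 CPM (P479).

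Atp5o and Cox7a2 passed the adjusted p (0.0393 and 0.0427) but not the fold change required, with a log2 fold change of 0.52 each. The other members with the smallest p that were lower in leukaemic cells were Ndufa1 (log2 fold change -0.48, adjusted p = 0.0840) and, at low and uncertain counts in this table, Atp5g2 (-1.29), Atp5l (-1.46) and Ndufs5 (-4.65). Most core subunits were not called: the log2 fold change was 0.39 for Ndufs1 and 0.22 for Ndufv1 of the electron input of complex I, 0.20 for Uqcrc1 and 0.19 for Uqcrc2 of complex III, 0.30 for Cox4i1 and 0.35 for Cox5a of complex IV, and 0.47 for Atp5a1 and 0.15 for Atp5b of complex V. By complex, the median was 0.15 for I, 0.24 for II, 0.19 for III, 0.31 for IV, 0.24 for V and 0.02 for the Ndufaf genes.

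The groups did not overlap for 28 members that were higher in leukaemic cells, where 19.4% of all genes did so, and for 4 that were lower, where 19.3% of all genes did so. DESeq2's Wald test called 10 members, 8 of them higher, and 21.8% of all genes: it added Ndufs5, Atp5g1, Atp5pb and Ndufaf5. The 6 calls of edgeR rested on few mice. Leaving out 1 mouse at a time left 0 calls without P224, 1 without P77, 1 without L28, 3 without L39, 3 without P40 and 5 without L26, and the highest adjusted p over these fits was between 0.0545 for Cox6a2 and 0.119 for Cox7a2l.

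**Figure D2:**
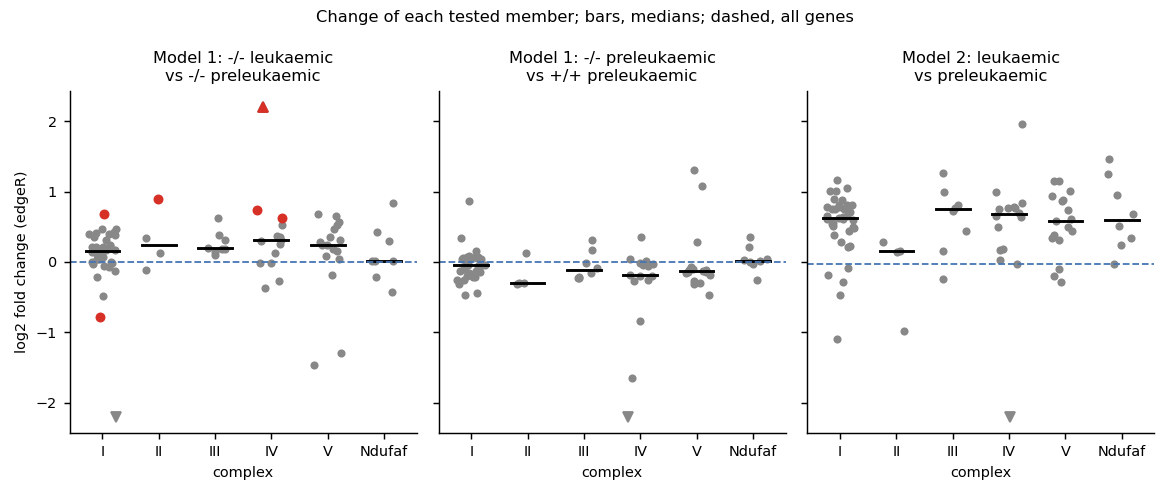
Log2 fold change of each tested member (points, by complex) in the comparisons within the models, with called members in red, medians as bars and the median of all genes as a dashed line; triangles are values beyond the axis. The members' median lies at 0.19 for TgSpi1FA-/- leukaemic cells, at -0.09 for TgSpi1FA-/- against TgSpi1FA+/+ preleukaemic cells and at 0.62 for the leukaemic cells of model 2.

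**Figure D3:**
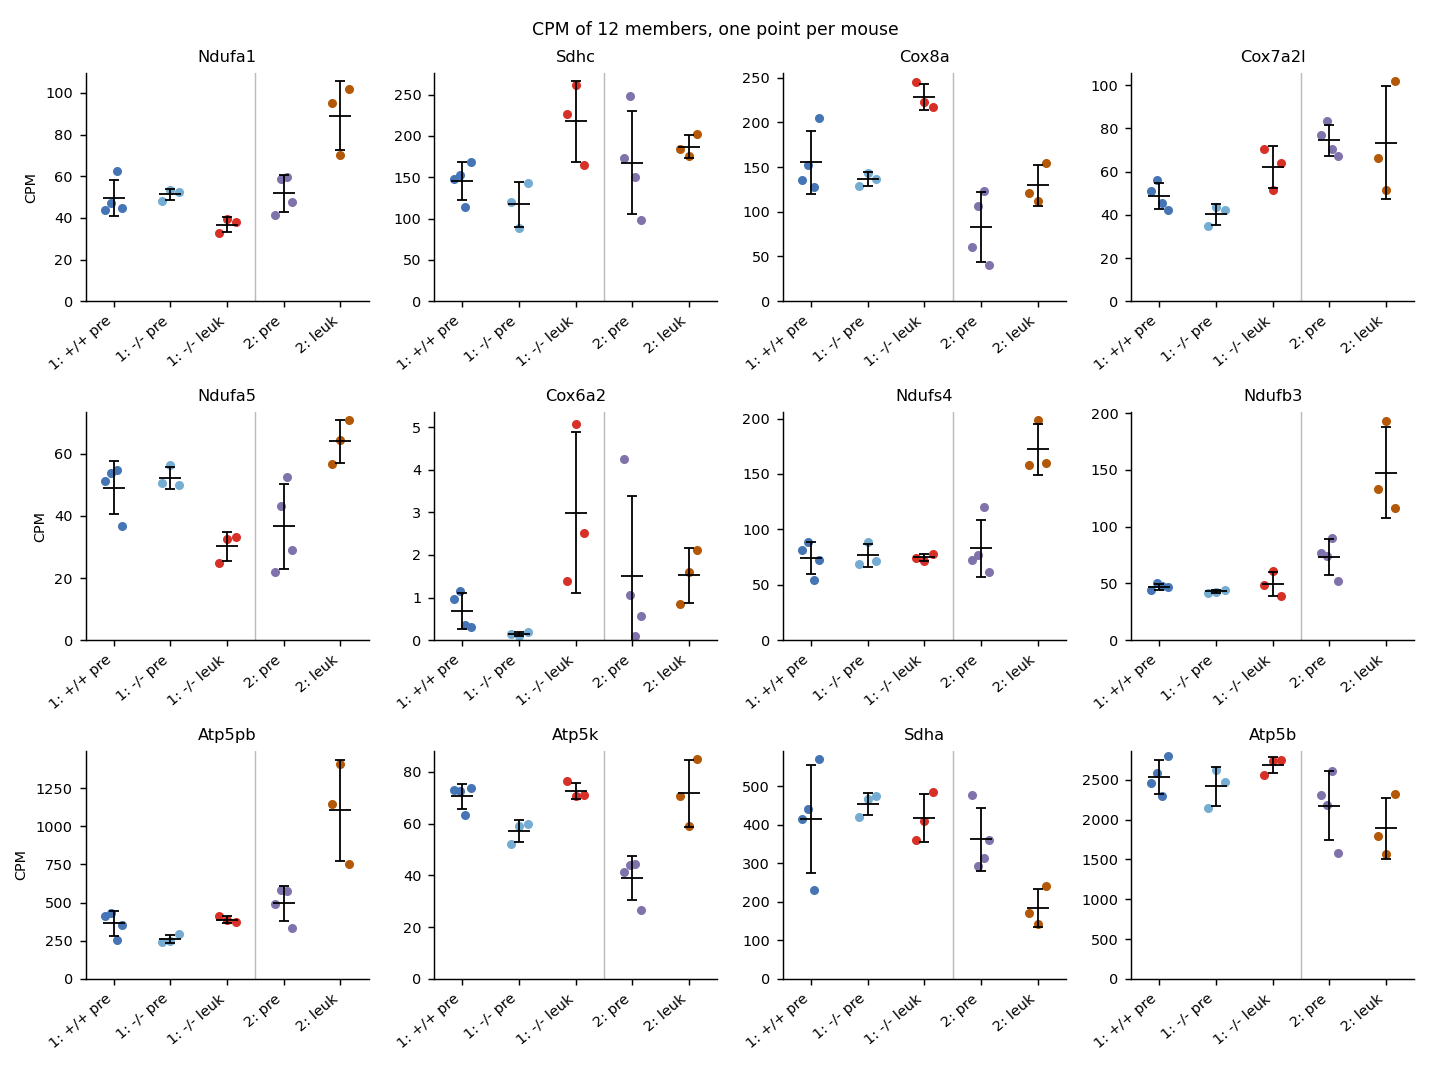
CPM of 12 members in every mouse, by group; points are mice, horizontal bars are means and error bars are SD. Sdhc, Cox8a, Cox7a2l and Cox6a2 are higher and Ndufa5 and Ndufa1 are lower in leukaemic than in preleukaemic TgSpi1FA-/- mice, without overlap. Sdhc and Cox7a2l in the leukaemic mice overlap the TgSpi1FA+/+ preleukaemic mice. Sdha is lower in leukaemic mice of model 2.

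Whole chromosomes stood apart in single mice. For each mouse and chromosome, the median difference was taken over genes above a mean log2 CPM of 3, against the preleukaemic libraries of the same model. Of 323 such medians, 23 in 13 libraries were past 0.25 either way, whereas the median size was 0.057. Of the 21 that held members, 15 had the members' median on the same side. In P224, the lowest mouse for Sdhc, the median of its chromosome 1 was -0.30, and in leukaemic L28 it was 0.36, with 6 of 6 members there higher. In leukaemic L26, the median of chromosome 19, which carries Cox8a, was 0.41.

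Within 2 Mb of Sdhc, 35 neighbouring genes had a median log2 difference from the TgSpi1FA-/- preleukaemic mean of 0.44 in L26, 0.42 in L28 and -0.29 in L39, while Sdhc itself was higher in each, by 0.98, 1.19 and 0.52. After each chromosome's median was subtracted in every library, the difference between leukaemic and preleukaemic means was 0.65 in place of 0.89 for Sdhc and 0.63 in place of 0.74 for Cox8a. Cox7a2l moved from 0.61 to 0.76 and Ndufa5 from -0.79 to -0.68. The median over 77 members was 0.28 after this step and 0.22 before and 68 of the 77 were higher after it, against 64 before.

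The chromosome pattern was strongest in a pair of preleukaemic mice. In P77, chromosome 18 had a median of -0.95, with 96.3% of its 218 genes lower, and Atp5a1, which lies there, was at 814 CPM against 1697 and 1817 CPM in P40 and P224. In P451, chromosome 13 had a median of -0.74, with 96.7% of its 302 genes lower, and all 6 members on it were lower: Ndufs4, Ndufs6, Sdha, Uqcrb, Uqcrfs1 and the assembly factor Ndufaf2. Complex V without Atp5a1 still did not overlap between TgSpi1FA-/- leukaemic (4846 to 5030 CPM) and TgSpi1FA-/- preleukaemic cells (3812 to 4445 CPM).

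**Figure D4:**
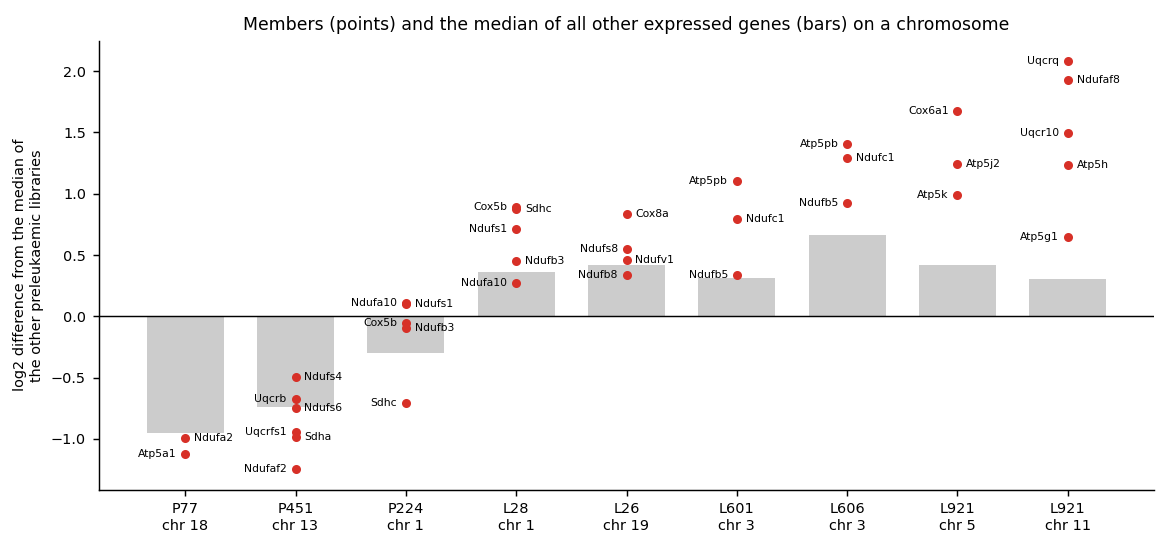
Log2 difference of single mice from the median of the other preleukaemic libraries of their model, for 9 pairs of a mouse and a chromosome that stood apart; bars are medians of all other expressed genes on the chromosome and points are members on it. All members shown on chromosome 18 of P77 (bar at -0.95) and on chromosome 13 of P451 (-0.74) lie below 0, and all on chromosome 1 of L28 (0.36) and chromosome 3 of L606 (0.67) above 0.

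Other features moved with the stage in model 1. The 12 erythroid markers summed to 2634 to 5150 CPM in TgSpi1FA-/- leukaemic cells and to 6545 to 6911 CPM in TgSpi1FA-/- preleukaemic cells, and Klf1 (log2 fold change -1.27, adjusted p = 0.006) and Ermap (-2.19, adjusted p = 0.002) fell. Megakaryocyte markers summed to 167 to 252 CPM against 31.3 to 40.1 CPM, with Itga2b and Vwf called higher. Stromal or endothelial markers summed to 9.70 to 36.0 CPM against 10.5 to 274 CPM, with Kdr called higher, and myeloid markers to 2.86 to 4.25 CPM against 2.17 to 3.81 CPM. T lymphoid markers reached 1.45 CPM, with Trbc2 called higher, and B lymphoid markers 0.55 CPM. The part of such shifts in the OXPHOS values was not tested.

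The second comparison set TgSpi1FA-/- against TgSpi1FA+/+ preleukaemic cells and asks what loss of Fanca changes before leukaemia. No member was called of 88 tested, and 0.00747% of all genes were, which is 1 gene. At an unadjusted p under 0.05 there were 7 members, 1 higher and 6 lower, and DESeq2's Wald test called 0 members and 1.72% of all genes. The members' median log2 fold change was -0.09, against 0.00 over all genes, with 57 members lower and 31 higher, and the lowest adjusted p was 0.535. These calls stayed at 0 when P445 and P479 were averaged to 1 library.

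The groups did not overlap for 5 members that were lower in TgSpi1FA-/- cells, where 4.27% of all genes did so, and for 1 that was higher, where 4.26% did so. The lower ones included Cox6a2 (log2 fold change -2.31), Ndufa3 (-0.46), Atp5k (-0.30) and Ndufc2 (-0.26), and the higher one was Atp5g2 (1.30), whose count is uncertain in this table. Ndufa3, an accessory subunit of complex I, was at 33.5, 33.1 and 31.8 CPM in P40, P77 and P224 and at 37.1 to 50.8 CPM in the TgSpi1FA+/+ mice. Atp5k, the e subunit of complex V, was at 59.9, 52.2 and 59.1 CPM and at 63.3 to 73.6 CPM. Atp5pb, a subunit of the peripheral stalk, had a log2 fold change of -0.47 with overlap. None of these passed an adjusted p. Megakaryocyte markers were also lower in the TgSpi1FA-/- preleukaemic mice, at 31.3 to 40.1 against 45.4 to 196 CPM, and their part was not tested.

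The comparison within model 2 set leukaemic against preleukaemic TgSpi1FA+/+ cells. No gene of the 12970 tested was called (0.0%), and thus no member of the 90 tested, at a lowest adjusted p of 0.162 among the members. Most members were nevertheless higher in leukaemic cells: 77 were higher and 13 lower, with a median log2 fold change of 0.62, against -0.03 over all genes. At an unadjusted p under 0.05 there were 42 members, 41 of them higher, which is 46.7% of the members and 19.9% of all genes. The groups did not overlap for 35 members that were higher, where 9.65% of all genes did so, and for 1 that was lower, where 10.4% did so. DESeq2's Wald test called 19 members and 9.05% of all genes. Of these, 17 were higher (Ndufa1, Ndufb3, Ndufb6, Ndufb8, Ndufc1, Ndufs4 and Ndufs6 of complex I, Cox6c, Cox7a1 and Cox7a2 of complex IV, Atp5h, Atp5j, Atp5j2, Atp5k, Atp5mpl and Atp5pb of complex V, and the assembly factor Ndufaf6), and Sdha and Cox6b2 were lower.

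The 5 higher members with the smallest p were Ndufs4, Atp5pb, Ndufb3, Atp5h and Atp5j2. Ndufs4, an accessory subunit of the NADH-oxidising arm of complex I (chr13:114287795-114388258), was at 72.5 (P633), 77.1 (P663), 120 (P812) and 61.6 CPM (P837) in preleukaemic cells and at 158 (L601), 199 (L606) and 160 CPM (L921) in leukaemic cells. The groups were apart, with a log2 fold change of 1.05 (SE 0.25) that edgeR did not call (adjusted p = 0.162) and DESeq2 did (adjusted p = 0.0126). Atp5pb (chr3:105942698-105960099) was at 492, 582, 577 and 336 CPM in P633, P663, P812 and P837 and at 1144, 1411 and 755 CPM in L601, L606 and L921, a log2 fold change of 1.15.

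Chromosome 3, which carries Atp5pb, had a median of 0.31 in L601 and of 0.67 in L606, and the difference in Atp5pb was 0.84 once these medians were subtracted, against 1.14 before. Ndufb3 had a log2 fold change of 1.01, from 51.9 to 89.7 CPM in preleukaemic to 116 to 193 CPM in leukaemic cells. Atp5h, another peripheral stalk subunit, was at 205 to 351 CPM in preleukaemic and 449 to 700 CPM in leukaemic cells, and Atp5j2, of the membrane part of complex V, at 135 to 234 and 271 to 425 CPM. All of these had the same adjusted p of 0.162. Ndufb3, Atp5pb and Atp5h shared 6.72%, 8.58% and 19.9% of their 50-base words with other genes, so that their counts are less certain. The members' median was 0.60 over those that shared under 5%.

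Sdha was the only member that was lower in leukaemic cells of model 2 without overlap. It was at 478 (P633), 294 (P663), 315 (P812) and 361 CPM (P837) in preleukaemic cells and at 171 (L601), 143 (L606) and 240 CPM (L921) in leukaemic cells, a log2 fold change of -0.97 (SE 0.26, adjusted p = 0.162). The difference was -0.90 after the median of chromosome 13 was subtracted. Other lower members with small p were Cox6b2 (log2 fold change -4.33), Ndufa10 (-0.46) and Atp5a1 (-0.29). Atp5b, the most abundant member, had -0.20, whereas Cox4i1, which was next per kb in preleukaemic cells of model 2, had 0.77 (adjusted p = 0.186) without overlap.

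By complex, the median log2 fold change in model 2 was 0.63 for I, 0.15 for II, 0.74 for III, 0.68 for IV, 0.58 for V and 0.60 for the Ndufaf genes. Short genes were the higher ones. Members with under 700 bp of exon had a median of 0.75, and 25 of 25 were higher. Members of 700 to 1200 bp had a median of 0.67 and those of at least 1200 bp 0.34, with 23 of 33 higher. Genes outside the set had medians of 0.47 (852 genes), 0.41 (1119 genes) and -0.11 (10897 genes) in the same length classes, so the members lay above the other genes of their class. Across genes, Spearman's rho of length with the log2 fold change was -0.36 over 90 members and -0.38 over 12869 other genes; in model 1 it was 0.02 and -0.05. Genes share the libraries and are not independent replicates.

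Genes of cytosolic ribosomal proteins, which are also short, moved alike in model 2. They summed to 64457 to 104410 CPM in preleukaemic and 108700 to 165090 CPM in leukaemic cells, and 83 of 86 were higher, with a median log2 fold change of 0.72. In model 1 their median was 0.12. Mast cell markers summed to 2.55 to 54.9 CPM in preleukaemic and 58.5 to 71.0 CPM in leukaemic cells of model 2, stromal or endothelial markers to 0.25 to 31.9 CPM and 0.0568 to 0.128 CPM, and all 12 erythroid markers were lower in leukaemic cells, with 0 called. The part of gene length, ribosomal protein genes and these markers in the higher OXPHOS levels was not tested.

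Whether the leukaemic change differed between the models was tested with an interaction term over all 17 libraries. Of 89 members tested, 3 were called, all lower in leukaemic cells of model 1 and higher in those of model 2, and 4.61% of all 14597 genes were called. Ndufa1, a small subunit of complex I encoded on the X chromosome (chrX:37187588-37191163), differed by a log2 value of -1.27 (SE 0.27, adjusted p = 0.0298). It was at 52.5, 48.0 and 53.2 CPM in P40, P77 and P224 and at 32.8, 39.5 and 37.8 CPM in leukaemic L26, L28 and L39 of model 1. In model 2 it was at 41.2, 58.8, 59.5 and 47.7 CPM in P633, P663, P812 and P837 and at 95.3, 70.3 and 102 CPM in leukaemic L601, L606 and L921.

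Ndufa5 differed by -1.60 (SE 0.38, adjusted p = 0.0361). In model 2 it was at 22.0, 43.1, 52.5 and 29.1 CPM in preleukaemic P633, P663, P812 and P837 and at 56.9, 64.6 and 70.8 CPM in leukaemic L601, L606 and L921, higher where it fell in model 1. Ndufa1 and Ndufa5 were the 2 members whose groups did not overlap in opposite directions, which is 2.27% of 88 members tested in both, against 2.67% of all genes. Atp5g2 differed by -1.69 (SE 0.43, adjusted p = 0.0421), at uncertain counts in model 1. Over all members the median was -0.48, with 65 lower and 24 higher, against 0.05 over all genes. Genes of cytosolic ribosomal proteins had -0.54, with 76 lower and 10 higher. OXPHOS assembly factors outside the rule had -0.30, with 29 lower and 14 higher, and TCA cycle enzymes 0.05, with 5 lower and 9 higher. DESeq2's Wald test called 11 members and 14.5% of all genes. The count of edgeR was 0 without any one of L28, L39, P40, P77, P224, L601 or L921, 1 without L606 and 20 without P812. Model, strain and library protocol cannot be told apart in this difference.

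In both leukaemic comparisons, 12 members were higher without overlap: Ndufa7, Ndufb5, Ndufb8 and Ndufs6 of complex I, Uqcr11 and Uqcrb of complex III, Cox7a2 of complex IV, and Atp5c1, Atp5h, Atp5k, Atp5mpl and Atp5pb of complex V. This was 13.6% of the 88 members tested in both, against 1.57% of 12091 genes. In the single comparisons, 28 of 88 members were higher without overlap in model 1 and 35 of 90 in model 2. Whether the models agree beyond these shares was not tested. Uqcrb, Atp5h, Atp5pb, Ndufs6 and Uqcr11 shared 25.4%, 19.9%, 8.58%, 7.68% and 6.27% of their 50-base words with other genes. Their counts are less certain. Ndufb8, an accessory subunit of the membrane arm, was at 143, 147 and 151 CPM in TgSpi1FA-/- preleukaemic P40, P77 and P224 and at 190, 218 and 176 CPM in leukaemic L26, L28 and L39, and its log2 fold change was 0.41 in model 1 and 1.01 in model 2. For Atp5k it was 0.35 and 0.88, and for Uqcr11, a small subunit of complex III, 0.32 and 0.80. None of the 12 was called by edgeR in either comparison, at adjusted p from 0.0427 (Cox7a2, under the fold change required) upwards.

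The promoters of 75 members were in the RefSeq table (GRCm38.p6, 250 bases before to 50 after the start). Motifs of factors known to act on nuclear genes of mitochondrial proteins were searched on both strands without a mismatch. NRF1's GCGCATGC occurred in promoters of 12 members (16.0%, against 3.05% of 27025 genes). The ETS motif CCGGAAGT, of the class bound by GABPA, occurred in those of 5 (6.7%, against 4.31%) and YY1's AAGATGGCG in those of 8 (10.7%, against 1.64%). At least 1 of the motifs was in promoters of 24 members (32.0%, against 8.47%). The 27025 genes are all genes with a RefSeq promoter, whether expressed in these cells or not. Of the members that were higher without overlap, 8 of 23 with a promoter held a motif in model 1 (34.8%) and 16 of the 51 other tested members did (31.4%). In model 2 the shares were 12 of 29 (41.4%) and 12 of 45 (26.7%). A match is a description of the letters and does not show binding.

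Of the 12 members higher in both comparisons, Ndufs6, Uqcr11, Atp5h and Atp5k held a motif. The 120 bases before the RefSeq start are shown for 3 of them, 5′ to 3′ on the gene's own strand, which is the minus strand for each, with the motif in capitals: an ETS motif for Uqcr11 (chr10:80406822-80406941), its reverse complement for Atp5h (chr11:115419920-115420039), and overlapping NRF1 motifs on both strands for Atp5k (chr5:108434400-108434519). Uqcr11 also holds an NRF1 motif on the other strand from position -4, which runs past the start and is not in capitals.
Uqcr11: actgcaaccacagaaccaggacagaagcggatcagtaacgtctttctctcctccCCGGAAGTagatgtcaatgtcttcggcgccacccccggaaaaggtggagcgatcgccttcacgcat
Atp5h: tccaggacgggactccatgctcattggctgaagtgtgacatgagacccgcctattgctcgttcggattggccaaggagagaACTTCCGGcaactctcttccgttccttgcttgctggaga
Atp5k: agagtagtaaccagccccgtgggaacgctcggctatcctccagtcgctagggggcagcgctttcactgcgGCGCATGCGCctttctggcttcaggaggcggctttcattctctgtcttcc

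Tissue-restricted isoforms were mostly low. Besides Cox6a2, described above, none was called by edgeR in a comparison within a model. DESeq2's Wald test called Cox7a1 higher and Cox6b2 lower in leukaemic cells of model 2. Cox6b2, the testis isoform of a complex IV subunit, was at 42.4 CPM in P138 and 1.8 to 5.7 CPM in the other TgSpi1FA+/+ preleukaemic mice of model 1, at 0.3 to 8.9 CPM in TgSpi1FA-/- preleukaemic and at 6.7 to 32.5 CPM in TgSpi1FA-/- leukaemic cells. In model 2 it was at 14.9, 3.6, 0.2 and 16.8 CPM in preleukaemic P633, P663, P812 and P837 and at no more than 1.2 CPM in leukaemic cells. Cox7a1, a muscle isoform, was at 7.9, 2.3 and 15.9 CPM in leukaemic L601, L606 and L921 and at 1.6 to 2.9 CPM in preleukaemic cells of model 2. Ndufa4l2 was at 11.5 CPM in P812 and 15.2 CPM in L921 and at no more than 2.3 CPM in the other mice of model 2. Cox4i2, Ndufs6b, Cox6c2 and Cox7b2 did not pass the filter in either model, and neither did Ndufa11b and Ndufa4l2 in model 1, with values of at most 0.29 CPM.

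The mitochondrially encoded subunits did not follow the nuclear ones. They summed to 12385, 12901 and 13870 CPM in TgSpi1FA-/- preleukaemic P40, P77 and P224 and to 2819, 9580 and 9555 CPM in leukaemic L26, L28 and L39, so that the groups did not overlap and the leukaemic cells were lower. Of 7 tested, 6 were lower and 1 higher, with a median log2 fold change of -0.82 and 0 called. TgSpi1FA+/+ preleukaemic cells had 4111 to 14672 CPM. These sums differed between tables. In the further table of model 1, described below, they were 17881, 24528 and 21279 CPM in L26, L28 and L39. The TgSpi1FA+/+ preleukaemic mice had 17653 to 26324 CPM there. In model 2 the sums overlapped, at 7055 to 22320 CPM in preleukaemic and 9130 to 12940 CPM in leukaemic cells, and P837, the lowest mouse for the nuclear members, was the highest here. Of these genes, 5 had no row in the table of model 1, so the sums cannot be set against each other between models.

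Genes that work with the members were also counted. Of 43 assembly factors outside the rule, Taco1 (log2 fold change 0.63, adjusted p = 0.0427), a translational activator of the mitochondrial complex IV subunit, and Bcs1l (0.68, adjusted p = 0.0484), which inserts the Rieske protein into complex III, rose in TgSpi1FA-/- leukaemic cells, whereas the copper chaperone Cox17 fell (-0.69, adjusted p = 0.0428). The median was -0.01. Cycs and Cyc1, which encode cytochrome c and cytochrome c1, had 0.75 (adjusted p = 0.0778) and 0.59 (adjusted p = 0.100). In model 2, 33 of the 43 assembly factors were higher, with a median of 0.42 and 0 called.

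Of 16 regulators of mitochondrial biogenesis tested, the mitochondrial DNA helicase Twnk rose in TgSpi1FA-/- leukaemic cells (log2 fold change 0.61, adjusted p = 0.0127). It was at 88.8, 85.2 and 92.8 CPM in P40, P77 and P224 and at 135, 137 and 137 CPM in L26, L28 and L39. Polg, the catalytic subunit of the mitochondrial DNA polymerase, fell (-0.77, adjusted p = 0.0192), from 192, 164 and 186 CPM to 95.6, 117 and 106 CPM in the same order of mice. Tfam, which packages mitochondrial DNA, had 0.56 (adjusted p = 0.0249), under the fold change required. In model 2, 0 of 16 were called and Twnk had -0.68 (adjusted p = 0.185). Of 14 enzymes of the TCA cycle, 0 were called in either model. Of 9 hypoxia-induced genes, Vegfa (1.29, adjusted p = 0.0267) and Bnip3 (1.62, adjusted p = 0.0492) rose in TgSpi1FA-/- leukaemic cells, and 0 were called in model 2.

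A further table held other counts for 7 mice of model 1, without the TgSpi1FA-/- preleukaemic group. It shows how far the levels differed between the tables. L26 had 36036450 counts in the first table and 171572736 in the second, and L39 had 38161124 and 35497594. Counting, sequencing run and library cannot be told apart in these differences. Of 22 members that shared at least 5% of their 50-base words with other genes and were above 5 CPM in every library of at least 1 table, 6 were over 4-fold higher in it, 1 (Ndufb9) was over 4-fold lower, and 9 were within 2-fold. Of 63 members that shared less, 0 were over 4-fold higher, 1 (Ndufaf8) was over 4-fold lower and 58 were within 2-fold. Atp5g2, one of 3 genes for the c ring of complex V, was at 0.51 to 1.47 CPM in the first table and at 88.8 to 165 CPM in the second, and Atp5l was at 1.59 to 5.11 and 140 to 193 CPM. Cox7c, Atp5md, Ndufs5 and Atp5g1 were the other 4. Levels of these 6 in model 1 and their differences from model 2 are therefore uncertain. Cox6b2, which shared 0.0% and was not above 5 CPM throughout either table, was in neither of these counts. Its median was 6.66 CPM in the first table and 40.9 CPM in the second, and its highest value 42.4 and 377 CPM. Among the called members, Sdhc was at 114 to 262 CPM in the first table and 91.0 to 213 CPM in the second. Ndufa5 was at 24.9 to 54.8 CPM in the first table and 12.9 to 57.0 CPM in the second. Its leukaemic values were below all TgSpi1FA+/+ values in the first table. In the second, L28 and L39 were above TgSpi1FA+/+ P138 and P451. Cox8a was lower in the second table, at 128 to 245 CPM in the first and 62.2 to 110 CPM in the second, where L26 (110 CPM) and L28 (98.3 CPM) were above the TgSpi1FA+/+ preleukaemic mice (62.2 to 83.0 CPM) and L39 (66.2 CPM) was within their range. Cox7a2l had a ratio of medians, second to first table, of 1.71 and Cox6a2 of 0.259, and Cox6a2 in the second table was at 0.113, 0.490 and 4.86 CPM in L26, L28 and L39.

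**Figure D5:**
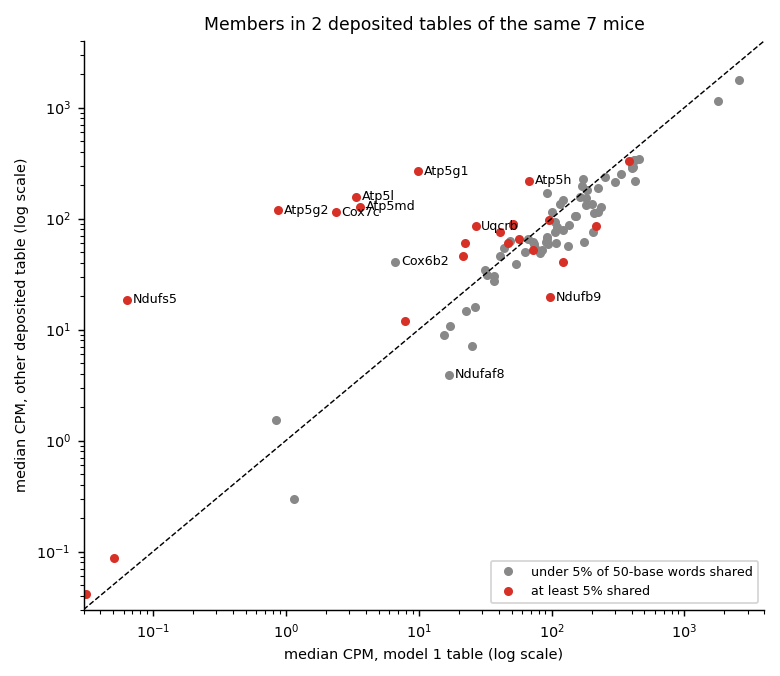
Median CPM of each member over the same 7 mice of model 1 in the first table (x axis) and in the further table (y axis), both on log axes, with members that share at least 5% of their 50-base words with other genes marked. Atp5g2, Ndufs5, Cox7c, Atp5l, Atp5md and Atp5g1 lie over 4-fold above the diagonal, and so does Cox6b2, which shares 0.0% of its words.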

How the data were processed

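RNA-seq libraries of cultured blasts from 17 mice were analysed. The authors deposited raw counts per Ensembl gene; the submitters' processing notes name bcl2fastq 2.17.1.14, STAR 2.5.3a and HTSeq 0.6.1p1 and the builds mm10 and GRCm38. The strand setting of the counting is not given in the sources used here. The table of model 2 was deposited in 2 identical copies, and 1 was used. The further table of model 1 (35497594 to 171572736 counts per library) served for levels only, with no test.

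Counts were filtered with filterByExpr and normalised by TMM in edgeR 4.0.16 (R 4.3.3), and each model was fitted over all its libraries with the quasi-likelihood test, which gives every adjusted p not otherwise named. The interaction between models was fitted over the genes of both tables. Genes were called at an adjusted p under 0.05 (Benjamini-Hochberg over all genes tested) and a fold change of at least 1.5. DESeq2 1.42.0 (Wald test), other filters and size factors, and leaving out each mouse were the alternatives. Replicates are separate mice by number. The scripts were tested on simulated counts. The members and gene lists were chosen with earlier results of these data known, so no list is independent support.

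Members named in the text were drawn from those called, the 5 higher and the 5 lower with the smallest p per comparison within a model, core subunits, tissue-restricted isoforms, members without overlap in both leukaemic comparisons, and the most and least abundant of each complex; Ndufaf5, Atp5g1 and others beyond this are named for counts of calls or for single mice. Positions and exon lengths came from GENCODE M21 (GRCm38). Promoters came from RefSeq (GRCm38.p6). A 50-base word is a stretch of 50 bases of a gene's exons, compared with all other exons. Atp5pb was listed as Atp5f1 in model 2 and was matched by its Ensembl identifier. A single member is counted in totals, sums and medians, but its own values are not reported here.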

Additional observations from a re-analysis of the deposited data

Results flagged for a closer look

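In groups of 4 preleukaemic mice, 9 of 122 tests found 1 mouse far from the others by Dixon's ratio. Chance gives about 1 in 20 where mice and tests are independent. Members share libraries, and whether P445 and P479 share a library was not tested, so the count cannot be set against that rate. In model 1, P138 stood above the other TgSpi1FA+/+ mice for Cox6b2 (42.4 CPM), Cox7a1 (2.87 CPM), Ndufs1 (404 CPM) and Ndufs7 (105 CPM), and P451 stood below them for Atp5k (63.3 CPM) and for the sum of complex II (806 CPM). Sdha lies on chromosome 13, whose median was -0.74 in P451. The 46 genes within 2 Mb of Cox6b2 had a median log2 difference of 0.16 in P138, against 3.68 for Cox6b2 itself.

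In model 2, P837 was low for Atp5k (26.5 CPM) and Sdhd (213 CPM), and P812 was high for Ndufc2 (1148 CPM). Of the 19 genes within 2 Mb of Ndufc2, 19 were higher in P812 than in the mean of the other 3 preleukaemic mice, with a median log2 difference of 2.57, against 3.97 for Ndufc2.

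The leukaemic change of model 1 minus that of model 2 passed the interaction test (edgeR, adjusted p 0.0298 to 0.0421) for Ndufa1 (log2 difference -1.27), Ndufa5 (-1.60) and Atp5g2 (-1.69). Atp5g2 had at most 1.47 CPM in the 7 mice of model 1 that both tables hold, and at least 88.8 CPM in the further table.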

How the results depend on the processing

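No paired analysis was possible because no mouse number occurs in more than 1 group. DESeq2's Wald test in place of edgeR's raised the members called from 6 to 10 in TgSpi1FA-/- leukaemic against preleukaemic cells, from 0 to 19 in model 2 and from 3 to 11 for the difference between models; without a filter on low counts the last was 1. Leaving out 1 mouse gave 0 to 5 calls in the first comparison and 0 to 20 for the difference between models, and 0 in each fit of the other comparisons. The members' median log2 fold change over these fits was 0.17 to 0.25 in model 1 leukaemic cells, -0.14 to -0.03 between genotypes and 0.47 to 0.79 in model 2, and the log2 ratio of the summed CPM 0.18 to 0.31, -0.18 to -0.04 and 0.22 to 0.47. With chromosome medians subtracted, an alternative chosen after seeing the data, the median difference of mean log2 CPM was 0.28 in place of 0.22 (77 members), -0.11 in place of -0.09 (77) and 0.78 in place of 0.66 (81). Ndufaf4, at 0.21 between genotypes, ranged from -0.043 (without P224) to 0.32 (without P77). Of the values that answer a comparison, 100 kept their direction and side of the threshold or moved by less than the spread, and 20 did not; of the others 509 did and 76 did not. The causes were not tested. With 3 or 4 mice per group and 1 library per mouse, a mouse that stands apart can decide a call, and genes near the floor of 3 counts have no precise fold change.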
